A study of Mus musculus with 2 samples.

Results

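The transcripts described here are 10 long noncoding RNA genes of the mouse: Malat1, Neat1, Gas5, Snhg1, Snhg3, Snhg8, Snhg12, Mir17hg, Mir155hg and Meg3. They were read in regulatory T cells (Treg cells), which restrain other immune cells, taken from wild-type mice and from littermates lacking miR-125a. Members were found by the gene symbol that the platform annotation gives each probe set, out of 18193 genes that at least 1 probe set named alone. A probe set is the group of short oligonucleotides that reads 1 transcript on the array. Of the 10 genes, 9 were named alone by 33 probe sets in all. A further 3 probe sets named a member together with a small RNA gene that it hosts or that lies inside it, and Mir17hg was read only by such a shared probe set. RefSeq's mouse gene table for the GRCm38.p6 assembly gave all 10 the lncRNA biotype.

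The wild-type group was a pool of RNA from CD4+CD25hi cells of wild-type mice, and the other group a pool from miR-125a-deficient (miR-125a KO) mice. All mice were 6 to 8 weeks old, and the cells came from the spleen after magnetic enrichment of CD4 T cells and a sort for CD4 and high CD25. The labels call the deficient mice KO and name no promoter, Cre driver or cell type for the deletion, and how many mice each pool held was not given in the sources used here. Each pool was read on 1 Affymetrix Mouse Genome 430 2.0 array, so there is no replicate, no test between genotypes and no p-value.

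Long noncoding RNAs act as RNA and not through a protein. Malat1 and Neat1 stay in the nucleus, where Malat1 gathers in speckles rich in splicing factors and Neat1 forms the scaffold of paraspeckles. Gas5 and the Snhg genes are spliced transcripts whose introns carry small nucleolar RNAs (snoRNAs), which guide chemical modification of ribosomal RNA. The spliced remainder of such a host is often translated briefly and removed by nonsense-mediated decay. Mir17hg and Mir155hg are cut in the nucleus to release microRNAs, and both are induced in activated lymphocytes. Meg3 is an imprinted RNA expressed from the maternal chromosome.

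The mature microRNAs that the host genes release are shown first, because the arrays read the long host transcript and not these products. The sequences are from RefSeq on GRCm38.p6, written 5′ to 3′, with the seed (bases 2 to 8), the part that pairs with a target, in capitals. Within the Mir17hg cluster on chromosome 14, miR-17-5p and miR-20a-5p share 1 seed and miR-19a-3p and miR-19b-3p another, so the 6 microRNAs have 4 seeds. The last sequence is miR-125a-5p of chromosome 17, the main arm of the microRNA missing in the deficient mice, and its seed is shared with none of the 7 others shown.
miR-17-5p, chr14:115043684-115043706, plus strand: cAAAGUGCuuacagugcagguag
miR-20a-5p, chr14:115044183-115044205, plus strand: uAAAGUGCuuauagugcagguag
miR-18a-5p, chr14:115043867-115043889, plus strand: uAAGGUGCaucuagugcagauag
miR-19a-3p, chr14:115044048-115044070, plus strand: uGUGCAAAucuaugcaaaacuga
miR-19b-3p, chr14:115044358-115044380, plus strand: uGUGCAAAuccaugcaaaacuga
miR-92a-3p, chr14:115044476-115044496, plus strand: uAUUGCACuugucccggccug
miR-155-5p, chr16:84714143-84714165, plus strand: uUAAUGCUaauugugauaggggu
miR-125a-5p, chr17:17830817-17830840, plus strand: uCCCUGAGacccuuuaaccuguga

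The deposited values are log2 signals, which were turned back to a linear signal for printing. To form a log2 ratio, a pseudocount of 16.3 was added to both signals and the deficient pool was divided by the wild-type pool, so that a positive ratio means higher in the deficient pool. Folds are on that scale and understate differences of dim probe sets. Ratios were counted where the signal, averaged over both pools, reached a minimum of 62.3, which is the median of all probe sets. The probe-set SD beside a ratio is the usual disagreement between probe sets of 1 gene at that signal, and it leaves out variation between mice and between arrays. It ranged from 0.38 for the dimmest to 0.16 for the brightest of 10 signal groups. Signals of different probe sets depend on their oligonucleotides, so no member is ranked above another by level.

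The cells carried RNA for the markers of the sort, CD4 and CD25. Cd4 stood at 715 in wild-type and 641 in deficient cells by its brighter probe set. Ctla4, an inhibitory receptor of Treg cells, stood at 16623 in wild-type and 16803 in deficient cells, and Il2ra, which encodes CD25, at 15390 and 18551. Foxp3, the lineage factor of these cells, was present in both pools but lower in the deficient one, at 694 against 1631. Of 15 Treg and T cell markers past the minimum, 6 had a ratio above 0, against 51% of all genes, and 9 below. Their median was -0.07. Nrp1 had -0.505, Cd28 -0.45 and Cd3e -0.41 by their brightest probe sets, while Ikzf2 had 0.45 and Trat1 0.80. Whether the pools held the same share of Treg cells was not tested. Of the markers of other spleen cells, 1 of 9 measured B cell genes and 4 of 14 genes of macrophages, monocytes and dendritic cells passed the minimum. The B cell gene, Cd79b, had a ratio of -0.14. Of the 4 others, Fcer1g had -1.02, at 226 in wild-type and 103 in deficient cells, Cd68 -0.81 and Csf1r -0.30. Zbtb46 had 0.86, and the median of the 4 was -0.55. Markers of CD8 T and NK cells passed in 11 of 12 genes, 9 of them with a ratio below 0. Klra7 and Klre1 went the other way, with ratios of 0.92 and 0.58. The summed signal of the 12 was 47271 in the wild-type and 39404 in the deficient pool. Most of it was Gzma, at 29096 and 26704, followed by Klrd1, at 7919 and 5065, and Nkg7, at 5438 and 3969. Cd8a, by its brightest probe set, and Cd8b1 were dimmer, at 435 and 295 and at 438 and 332. Whether the sum follows the number of CD8 T and NK cells was not tested. In bulk RNA, fewer cells of a type and less RNA per cell cannot be told apart.

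Of the 33 probe sets that named a member alone, 22 passed the signal minimum. Among these 22, 0 were at least 2-fold higher in the deficient pool and 1, a probe set of Meg3, was at least 2-fold lower. The shares over all 19248 probe sets naming 1 gene past the minimum were 1.04% higher and 1.39% lower. At 1.5-fold, 4 of the 22 were higher, all of them from snoRNA host genes, and 2 were lower, from Malat1 and Meg3. The corresponding shares over all probe sets were 4.73% higher and 7.15% lower. The median log2 ratio of the 22 was 0.03, beside -0.02 over all probe sets past the minimum. Behind this median the roles went different ways, with 7 of 8 probe sets of the nuclear RNAs below 0 and 10 of 12 of the snoRNA hosts above 0. Of all probe sets 47.5% were above 0. In both roles several probe sets read the same gene, so these are not independent measurements. The count for the hosts was 11 with equal array medians and 8 with quantile or loess scaling, since 4 of those ratios lay within 0.05 of 0. The 47.5% covers all signals past the minimum, while the host probe sets had mean signals from 1189 to 17283. Over all probe sets the median ratio rose with signal, from -0.06 below 250 to 0.05 at 10000 or more. Of the 22, 10 differed by more than 2 probe-set SDs in either direction, against 13.6% of all probe sets.

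**Figure D1:**
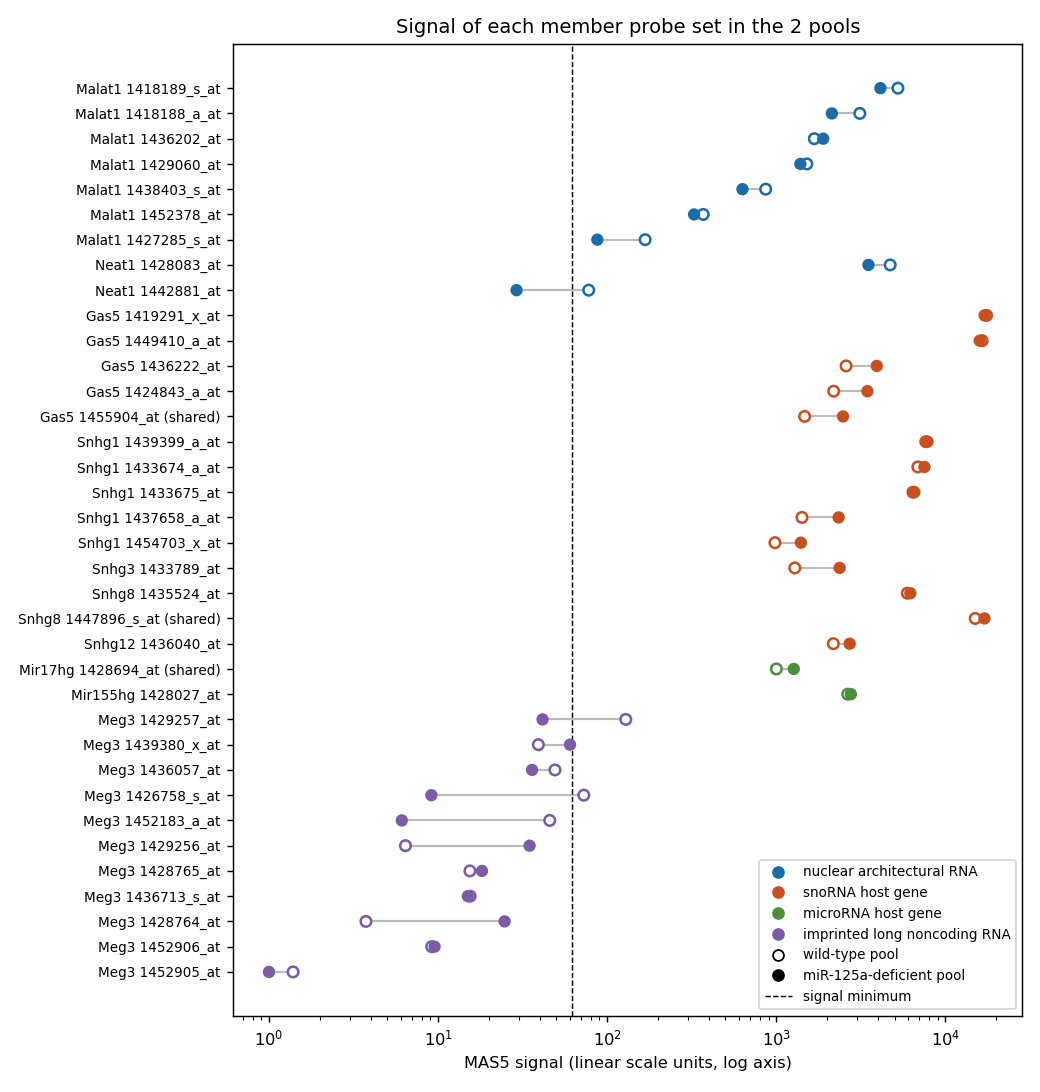
MAS5 signal (linear units on a log axis) of each member probe set in the wild-type pool (open circles) and the miR-125a-deficient pool (filled circles), coloured by role, with the signal minimum of 62.3 as a dashed line. The Malat1 and Neat1 pairs mostly have the filled circle on the left, several snoRNA host pairs have it on the right, and 10 of the 11 Meg3 pairs have a mean signal below the line.

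The nuclear RNAs Malat1 and Neat1 were lower in the deficient pool by most of their probe sets. Malat1 lies beside Neat1 on chromosome 19 with 0 annotated genes between them. For Malat1, probe set 1418189_s_at had a signal of 5237 in wild-type and 4126 in deficient cells, a log2 ratio of -0.34 (probe-set SD 0.16). Probe set 1418188_a_at had 3117 and 2130, a ratio of -0.55 (0.19), and was 1.46-fold lower. Both differences exceeded 2 probe-set SDs, and both probe sets cite the same source sequence in the platform annotation, so they are not independent readings. The same holds for 1427285_s_at and 1452378_at.

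The other Malat1 probe sets were less uniform. Probe set 1438403_s_at had 865 in the wild-type and 630 in the deficient pool, a log2 ratio of -0.45 (probe-set SD 0.24). The dimmest, 1427285_s_at, had 168 and 87.4, a ratio of -0.83 (0.38), which made it the 1 Malat1 probe set past 1.5-fold. Probe sets 1429060_at, at 1515 and 1388, and 1452378_at, at 369 and 326, had ratios of -0.12 and -0.17, both smaller than their probe-set SDs of 0.20 and 0.28. These last signals differ by little between the pools. Probe set 1436202_at went the other way, at 1678 in wild-type and 1893 in deficient cells, with a ratio of 0.17 (0.21). Over the 7 Malat1 probe sets the median was -0.34 and the range 0.999 log2 units. Among the 881 genes that 4 or more probe sets read past the minimum, 11.8% had a range as wide. These include genes with fewer probe sets than the 7 of Malat1, and a range tends to widen with their number.

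Neat1 was read by 2 probe sets. Probe set 1428083_at had a signal of 4712 in wild-type and 3506 in deficient cells, a log2 ratio of -0.42 (probe-set SD 0.19) and 1.34-fold lower. The other, 1442881_at, at 77.7 and 29.1, had a mean below the minimum and is given as a value only. RefSeq lists 2 Neat1 transcripts, and the platform annotation does not say which of them each probe set reads. Of the 8 probe sets of Malat1 and Neat1 past the minimum, 4 had a ratio below 0 by more than 2 probe-set SDs, while 7.53% of all probe sets did. These 8 read 2 genes and are not 8 independent measurements. The 7 of 8 below 0 held under the 3 other array scalings and both other pseudocounts.

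**Figure D2:**
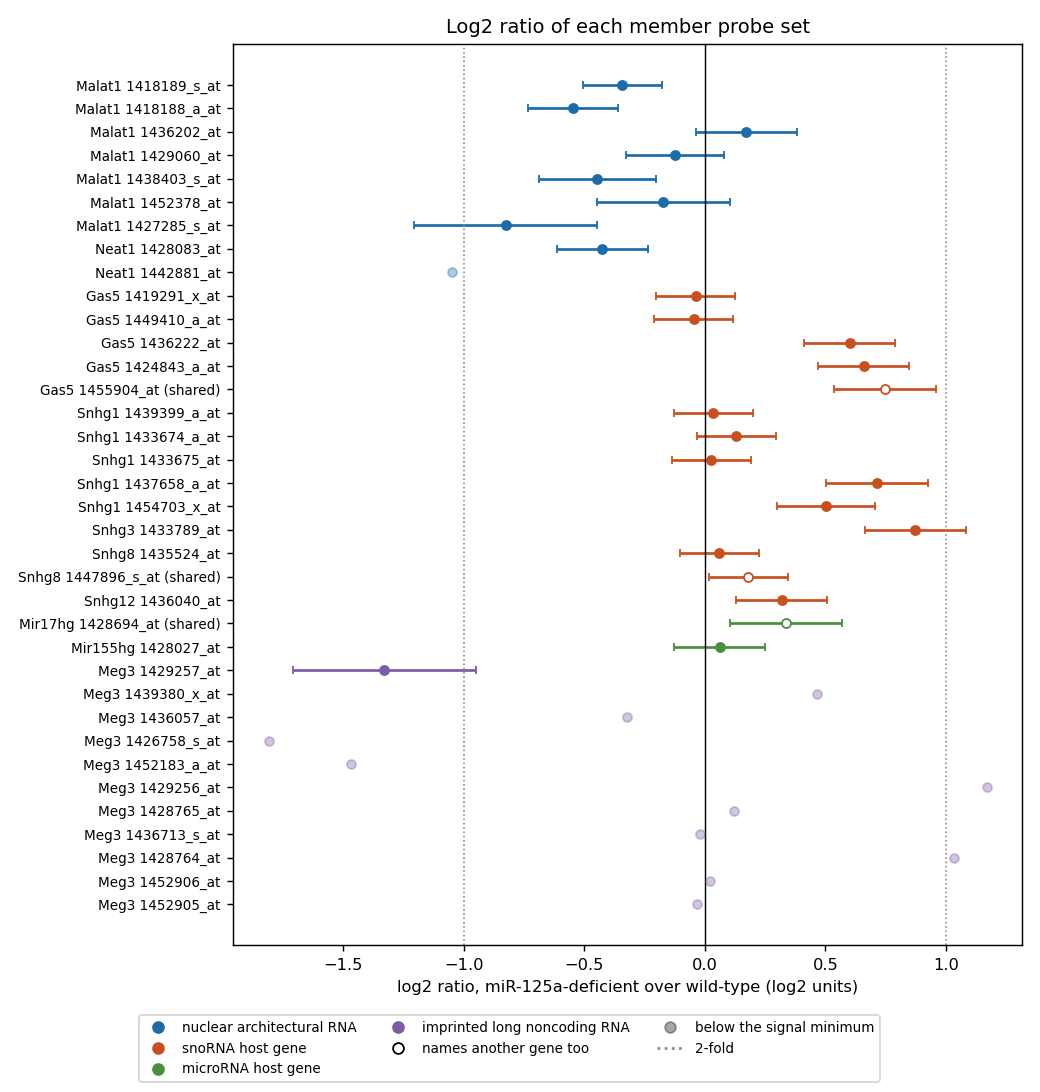
Log2 ratio of the miR-125a-deficient over the wild-type pool for each member probe set, with bars of 1 probe-set SD for those past the signal minimum, pale points without bars for those below it and open circles for probe sets that name another gene too. Snhg3 has the highest ratio past the minimum, at 0.87, and the Meg3 probe sets scatter from -1.81 to 1.17.

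The genes that build speckles and paraspeckles did not share a direction with Malat1 and Neat1. Of 22 nuclear speckle and splicing protein genes past the minimum, 12 had a ratio above 0 and 0 reached 2-fold, with a median of 0.02 that was below 0 with quantile and loess scaling. The lowest was Srrm2, a scaffold of speckles, with a ratio of -0.25 at 11071 in wild-type and 9320 in deficient cells. The highest was Srsf2, a serine- and arginine-rich splicing factor, with 0.40 at 6508 and 8585. Of 21 paraspeckle protein genes, 13 were above 0 and 0 reached 2-fold, with a median of 0.04 that was below 0 with quantile scaling and, at -0.02, with _a_at, _s_at and _x_at probe sets left out. Rbm14, which is needed for paraspeckles to form, had a ratio of 0.46 by its brightest probe set, at 2702 and 3719, and Zc3h6 had -0.68, at 477 and 292. The other Rbm14 probe sets past the minimum ran from -0.81 to 1.69. Over all 10590 genes past the minimum, each read by its brightest probe set, the median log2 ratio was 0.01 and 51% were above 0. Of these genes 1.08% were past 2-fold on the higher and 1.2% on the lower side.

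Other long noncoding RNAs were also mostly on the lower side. Of 14 past the minimum, out of 22 measured, 11 had a ratio below 0, while 51% of all genes were above 0. In this list 0 reached 2-fold and 2 were at least 1.5-fold lower, where the share over all genes was 5.79%. The list's median was -0.27, and -0.09 without the signal minimum. Airn, an imprinted antisense RNA that silences Igf2r, was lowest at -0.92 (probe-set SD 0.27), with a signal of 751 in wild-type and 390 in deficient cells. Its 3 other probe sets past the minimum had ratios of -0.54, -0.98 and -1.44, so all 4 were below 0. Lncpint, a p53-induced RNA, had -0.90 at 163 and 79.9. Tug1, at 2063 and 1676, had -0.30, and Xist, the RNA of the inactive X chromosome, had 0.02 at 18564 and 18810 by its brightest probe set and -0.29 and -0.30 by its 2 others. Norad, which binds Pumilio proteins, was highest at 0.23, with 6807 and 7969.

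Most probe sets of the snoRNA host genes leaned the other way. Snhg3, which hosts the H/ACA snoRNAs Snora73a and Snora73b, had the highest ratio of all members past the minimum, at 0.87 (probe-set SD 0.21). Its 1 probe set gave 1286 in the wild-type and 2369 in the deficient pool, which was 1.83-fold higher. Snhg12, host of 4 snoRNA genes in the RefSeq table, was at 2174 and 2714, a ratio of 0.32 (0.19) from 1 probe set. Snhg8, host of Snora24, was at 5950 and 6204, a ratio of 0.06 (0.16). Snhg8 thus differed by less than its probe-set SD. A second probe set, which names Snhg8 together with Snora24, had a ratio of 0.18 (0.16) at 15001 and 17007.

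The probe sets of Gas5 disagreed with each other. Gas5, a growth-arrest transcript that holds 8 snoRNA genes in the RefSeq table, was read alone by 4 probe sets. Probe set 1419291_x_at stood at 17510 in wild-type and 17055 in deficient cells, a log2 ratio of -0.04 (probe-set SD 0.16), and 1449410_a_at at 16486 and 15957, a ratio of -0.05 (0.16). Neither differed beyond its probe-set SD, and the sign of the first turned, to 0.0014, with equal array medians. Probe set 1436222_at stood at 2585 and 3927, a ratio of 0.60 (0.19). Probe set 1424843_a_at stood at 2184 and 3456, a ratio of 0.66 (0.19). Each of these was over 1.5-fold higher in the deficient pool. Another probe set, which names Gas5 with the snoRNA gene Snord47 inside it, had a ratio of 0.75 (0.21) at 1470 and 2480.

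Snhg1, host of 8 snoRNA genes in the same table, was split in a like manner. Probe sets 1439399_a_at, at 7654 in wild-type and 7839 in deficient cells, and 1433675_at, at 6429 and 6552, had log2 ratios of 0.03 each, with a probe-set SD of 0.16. Probe set 1433674_a_at, at 6868 and 7514, had 0.13 (0.16). These 3 lay within their probe-set SDs, the last 2 cite the same source sequence, and the ratios of 1439399_a_at and 1433675_at were just below 0 with quantile and loess scaling. Probe set 1437658_a_at, at 1418 and 2336, had a ratio of 0.71 (0.21) and was 1.64-fold higher. Probe set 1454703_x_at, at 981 and 1397, had 0.50 (0.20). The last 2 exceeded 2 probe-set SDs. Over all 12 host probe sets, 5 were above 0 by more than that, against 6.06% of all probe sets. Most of the 12 read Gas5 or Snhg1, so they are not 12 independent measurements. By each gene's brightest probe set naming it alone, the ratios were -0.04 for Gas5, 0.03 for Snhg1 and 0.06 for Snhg8. They were 0.32 for Snhg12 and 0.87 for Snhg3, and only that of Snhg3 exceeded 2 probe-set SDs.

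In both genes the probe sets with the larger ratios were those with the lower signals. The mean ratio of the 2 dimmest probe sets minus that of the 2 brightest was 0.67 for Gas5 and 0.53 for Snhg1, against -0.05 for Malat1. Over the same 881 genes this difference had a median of -0.03, with 5th and 95th percentiles of -0.53 and 0.45. A difference as large in either direction as that of Gas5 was held by 2.16% of those genes, and as that of Snhg1 by 8.29%. The width of ratios at a given signal moved with it: 0.815% of the 491 probe sets with a mean signal of 10000 or more differed by 1.5-fold in either direction, beside 3.77% from 4000 to 10000 and 6.96% from 1000 to 4000. RefSeq lists 8 Gas5 transcripts, and suffixes such as _x_at and _a_at mark probe sets whose probes may match other transcripts. The part of signal strength and of transcript form in the split was not tested.

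**Figure D3:**
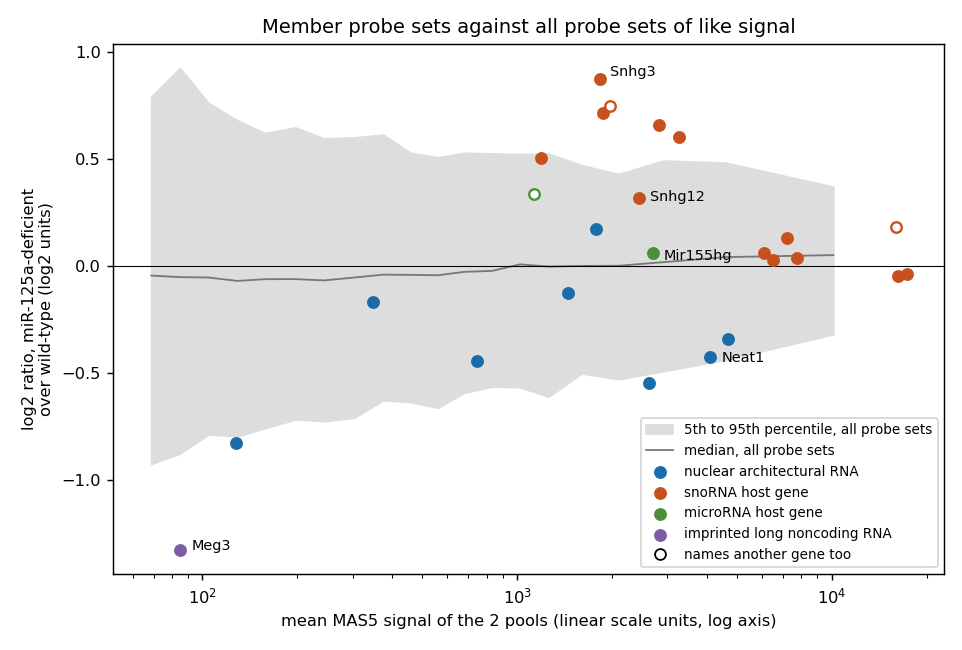
Log2 ratio of the miR-125a-deficient over the wild-type pool against the mean signal (log axis) for member probe sets past the minimum, over the 5th to 95th percentile (grey) and median (line) of all probe sets naming 1 gene in 20 signal bins, drawn at each bin's middle so that the brightest points pass its right end. Of the 22 that name a member alone, 4 lie above the grey band, all from snoRNA hosts, 3 below it, from Malat1 and Meg3, and 15 within.

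The start sites of the snoRNA hosts are shown because transcripts of this class often begin with a run of pyrimidines, a feature they share with messenger RNAs of ribosomal proteins. Each window holds the 15 bases before and the 25 from the RefSeq start site on GRCm38.p6, 5′ to 3′ on the gene's strand, with the unbroken run of C and T from the start site in capitals.
Gas5, upstream start, chr1:161034586-161034625, plus strand: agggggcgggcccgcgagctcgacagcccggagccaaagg
Gas5, downstream start, chr1:161035151-161035190, plus strand: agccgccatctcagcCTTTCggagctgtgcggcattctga
Snhg1, chr19:8723472-8723511, plus strand: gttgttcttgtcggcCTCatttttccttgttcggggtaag
Snhg3, chr4:132353662-132353701, minus strand: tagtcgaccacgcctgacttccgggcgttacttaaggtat
Snhg8, chr3:123508312-123508351, minus strand: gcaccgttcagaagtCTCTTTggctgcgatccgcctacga
Snhg12, chr4:132308663-132308702, plus strand: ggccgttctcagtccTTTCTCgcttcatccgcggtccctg

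Runs of at least 5 pyrimidines began 3 of these 6 start sites, the downstream one of Gas5 and those of Snhg8 and Snhg12. Of all 32851 promoter entries in the table, 4.44% did so. Snhg3, with the highest ratio, had a run of 0, and Snhg8, with a ratio of 0.06, a run of 6. Snhg12, with a ratio of 0.32, also had a run of 6. The run was 3 for Snhg1 and 0 and 5 for the 2 starts of Gas5. A link between run and ratio was not tested. Promoter entries of 300 bases, from 250 before to 50 after the start, were found for 9 members, with 11 start sites, and none for Neat1. The start given for Mir17hg lies inside its microRNA cluster, after miR-17, miR-18a, miR-19a and miR-20a. The start of its full primary transcript was therefore not among those searched. In the 11 entries, on both strands, the E-box letters CACGTG bound by MYC occurred in 0, against 7.15% of all entries. The loose AP-1 pattern TGANTCA, where N is any base, occurred in 0, against 7.81%. The cAMP response element TGACGTCA occurred in 2, of Gas5 and Meg3 (1.79% of all entries), and the TATA box letters TATAAA in 4, of Snhg1, Snhg3, Snhg8 and Meg3 (13.6%). A match is a description of the letters only.

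Neighbours of the hosts were measured too. Snhg12 and Snhg3 lie on chromosome 4 with 2 protein-coding genes between them, Trnau1ap and Rcc1. Rcc1, the chromatin-bound exchange factor of the GTPase Ran, which lies next to Snhg3, had a log2 ratio of 0.69 (probe-set SD 0.27), at 396 in wild-type and 649 in deficient cells. It had the highest ratio of the 27 genes past the minimum in the list written for other snoRNA hosts. Its place in that list comes from general knowledge, and the RefSeq table puts Snora73a and Snora73b inside Snhg3. In that list 22 were above 0, against 51% of all genes, and the median was 0.17. Of its genes 0 reached 2-fold and 2 were at least 1.5-fold higher, where the share over all genes was 5%. Among its noncoding hosts, Snhg7 was at 752 and 1053 with a ratio of 0.48, Snhg4 at 2254 and 2950 with 0.39, and Snhg6 at 8523 and 8433 with -0.02. Taf1d, a subunit of an RNA polymerase I factor, was lowest at -0.21, with 1317 and 1135 by its brightest probe set, while its 6 others ran from -0.36 to 0.73.

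Genes that work with snoRNAs were mostly higher in the deficient pool. The list joined the proteins of snoRNA particles and their assembly with RNA polymerase I and its factors. Of its 26 genes past the minimum, 22 had a ratio above 0, against 51% of all genes. In the deficient pool 7 were past 1.5-fold on the higher side, 1 of them past 2-fold, and 0 past 1.5-fold on the lower side. Over all genes the shares were 5% and 1.08% on the higher side and 5.79% on the lower. The median was 0.44 and stayed between 0.43 and 0.48 under the alternatives tried. Polr1b, the second largest subunit of RNA polymerase I, was at 242 in wild-type and 594 in deficient cells, a log2 ratio of 1.24 (probe-set SD 0.28). Nolc1, a nucleolar chaperone of snoRNA particles, was at 1477 and 2645, a ratio of 0.83. Dkc1, the pseudouridine synthase of H/ACA particles, was at 2755 and 4726, a ratio of 0.77, and its partner Nhp2 at 5250 and 8606, a ratio of 0.71. Fbl, the methyltransferase of C/D particles, had 0.42, at 6045 and 8077. Nop56 was at 3447 and 5362 with 0.64. Both Nop56 and Ncl are also snoRNA hosts and were counted in both lists. Ncl had 0.24 by its brightest probe set, and -0.32, -0.18 and 0.36 by its others past the minimum. Taf1b was lowest, at -0.26.

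Genes of nonsense-mediated decay, the route that removes many spliced snoRNA hosts, had 14 of 17 ratios above 0, against 51% of all genes. Their median was 0.22, and 0 were at 1.5-fold in either direction. Over all genes 5% were past 1.5-fold on the higher side and 5.79% on the lower. Gspt1 and Etf1, the translation release factors, had 0.48, at 3177 and 4430, and 0.47, at 4009 and 5575. The other Gspt1 probe sets past the minimum ran from -0.27 to 0.33, and those of Etf1 from -0.25 to 0.60. Smg1, Smg6 and Rbm8a, above 0 by their brightest probe sets, also had others past the minimum below 0. Those of Smg5 and Exosc10 were all above 0. Upf2, a core factor of the pathway, was lowest at -0.45, with 2450 in the wild-type and 1794 in the deficient pool, while Upf1, its helicase, had 0.22 at 284 and 334.

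**Figure D4:**
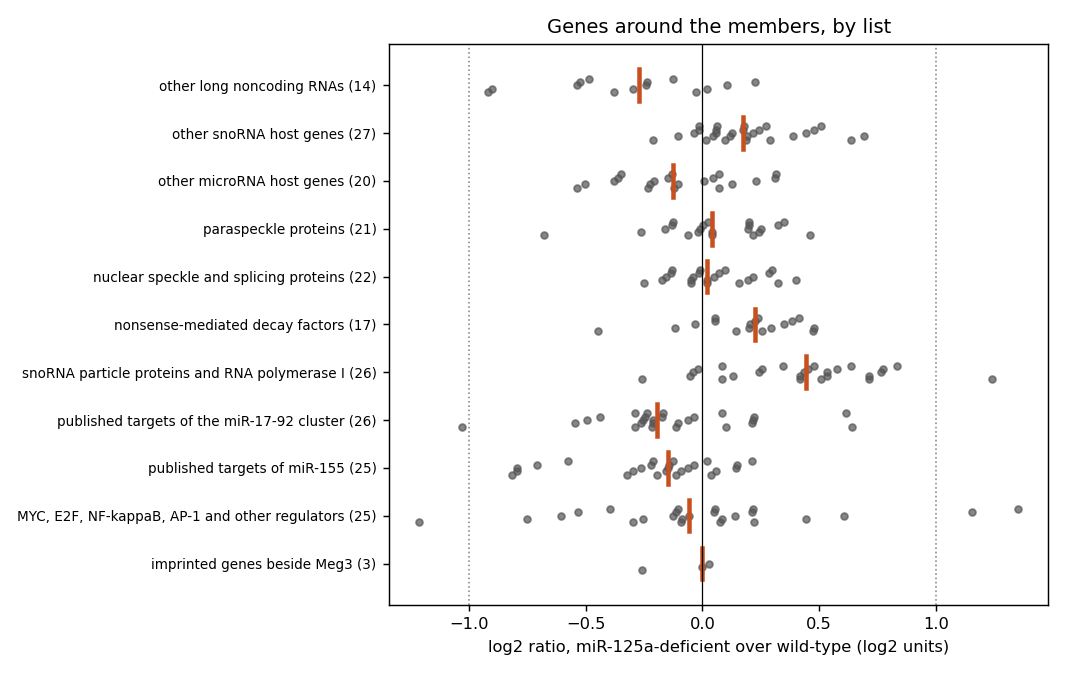
Log2 ratio of the miR-125a-deficient over the wild-type pool for the genes past the signal minimum of each list other than the cell type markers (grey points, 1 per gene by its brightest probe set, number in brackets), with the list's median as an orange bar and dotted lines at 2-fold. The snoRNA particle and RNA polymerase I list has the highest median of those drawn, at 0.44, and the list of other long noncoding RNAs the lowest, at -0.27.

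The microRNA host genes differed little between the pools. Mir155hg, the host of miR-155 (also called Bic), had a signal of 2645 in wild-type and 2760 in deficient cells, a log2 ratio of 0.06 (SD 0.19) by its 1 probe set. The difference was smaller than the probe-set SD. Mir17hg was read by 1 probe set that names it together with Mir92-1, the hairpin gene of miR-92a-3p. It was at 1000.2 and 1268, a ratio of 0.34 (0.23), which was 1.26-fold higher and within 2 probe-set SDs. The RefSeq model of Mir17hg holds the hairpin of miR-92a-3p whole and that of miR-19b-3p in part. The hairpins of the 4 others, miR-17, miR-18a, miR-19a and miR-20a, lie before it. The host's full primary transcript, as opposed to this model, was not read separately.

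Mature microRNAs are not read by these arrays, so their published targets were described by list. No target sequence was searched for the seeds. For the miR-17-92 cluster, 19 of 26 target genes past the minimum had a ratio below 0, with a median of -0.19. Bcl2l11, which encodes the death factor BIM, was the 1 target at least 2-fold lower, at 662 in wild-type and 316 in deficient cells, a ratio of -1.03 (probe-set SD 0.27). Its 3 other probe sets past the minimum had -1.12, -0.89 and -0.43. At least 1.5-fold higher were 2 targets, Tnfaip3, which encodes the NF-kappaB inhibitor A20, with 0.64 at 5069 and 7900, and Thbs1, with 0.62 at 83.3 and 136. For miR-155, 19 of 25 targets past the minimum were below 0, 0 reached 2-fold and 4 were at least 1.5-fold lower, and the median was -0.15. The lowest was Maf, a transcription factor of T cell cytokine genes, with -0.82 at 5053 and 2865. Socs1, a brake on cytokine signalling and a target of miR-155 in Treg cells, had 0.14 at 1356 and 1500. The lists share Hif1a and S1pr1, and of all genes past the minimum 51% had a ratio above 0, 5% were past 1.5-fold on the higher side and 5.79% on the lower, and 1.2% were past 2-fold on the lower.

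The list around the control of the host genes joined MYC and its partners and antagonists, E2F, NF-kappaB, AP-1 and ETS factors, Irf4, Foxp3 and the cyclin gene Ccnd1. It went both ways, with 12 of 25 above 0 and a median of -0.06 that turned positive with equal array medians and when all probe sets of a gene were averaged. The MYC antagonists Mxd1, Mxd4, Mxi1 and Mnt were all 4 below 0 by their brightest probe sets. Mnt, at -0.11, lay within its probe-set SD of 0.20. Among their other probe sets past the minimum, Mxd1 had 1 above 0, at 0.42, and Mxd4 had ratios of 0.05 and 0.56. The remaining ones, of Mxd1, Mxd4 and Mxi1, were below 0. Without these 4 genes and Ccnd1, a choice made after seeing the data, 11 of 20 were above 0 and the median was 0.05. Myc, an activator of Mir17hg, was at 9274 in wild-type and 8901 in deficient cells, a ratio of -0.06 (probe-set SD 0.16). Mycn, its relative, had 1.15 by its probe set past the minimum, at 153 and 361, while the 2 others, below it, went opposite ways. Batf, an AP-1 factor of effector T cells, was highest, with 1.35 at 1790 and 4598, and Foxp3, which can activate Mir155hg, lowest, with -1.21. Jun, another AP-1 subunit, had -0.75 at 4834 and 2868. Other microRNA host genes had 12 of 20 ratios below 0, a median of -0.13 (0.0058 without the signal minimum) and 0 at 1.5-fold. Over all genes 51% were above 0, 5% past 1.5-fold on the higher side and 5.79% on the lower. Dleu2, host of miR-15a and miR-16-1, was lowest at -0.54. Mcm7, host of the miR-106b cluster and a replication helicase subunit, was highest at 0.32. Mir22hg, a noncoding host, was at 1958 and 1673 with -0.23.

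Meg3 was near the limit of detection in both pools. Of its 11 probe sets, 10 had a mean signal below the minimum, and over all 11 the signals ran from 1.39 to 129 in the wild-type and from 1 to 60.3 in the deficient pool. Probe set 1429257_at, the 1 past the minimum, stood at 129 in wild-type and 41.4 in deficient cells, a log2 ratio of -1.33 (probe-set SD 0.38). It is the probe set counted as at least 2-fold lower above, and it was not past 2-fold with a pseudocount at the median signal, at -0.88. Just below the minimum, 1439380_x_at had a mean signal of 49.7, with 39.2 in the wild-type and 60.3 in the deficient pool.

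The Meg3 probe sets did not agree in direction. Ratios were above 0 in 5 and below 0 in 6 of the 11. The lowest was -1.81, from 1426758_s_at at 72.7 and 9.12, and the highest 1.17, from 1429256_at at 6.41 and 34.7. Among all probe sets naming 1 gene below the minimum, 8.22% were past 2-fold on the higher and 5.85% on the lower side. The value of 1 in the deficient pool, from 1452905_at, is the floor of the deposited scale and so a bound. The imprinted neighbours Dlk1, Rian and Mirg, which lie with Meg3 on chromosome 12, had brightest signals of 26.4 and 19.3, of 26.4 and 38.0, and of 21.04 and 38.8 in the wild-type and deficient pools, all below the minimum. Of the 7 measured genes of that region, 3 passed the minimum, 1 with a ratio above 0, and 0 reached 1.5-fold. These were genes at its edge, Yy1 at 6323 and 6315, Wdr25 with -0.26 and Wars with 0.03.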

How the data were processed

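RNA of Treg cells from 2 pools, 1 per genotype, was labelled from 6 ug of total RNA and read on 1 array each, per the labels' protocols. The authors deposited log2 signals made with MAS5, per the submitters' processing notes, version not given in the sources used here. Turned back to linear, both arrays had a mean of 500.0 after trimming 2% from each end, and 552 and 473 probe sets lay at the floor of 0 on the log2 scale. The number of arrays limits the precision.

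Of 45101 probe sets, 34945 named 1 gene, 932 several, 64 were controls and 9160 were unnamed here. The identifiers of the 33 member probe sets matched the RefSeq table. Ratios, the minimum and the pseudocount (the 25th percentile of all signals) are those of the text. The probe-set SD was taken over 5037 genes read by 2 or more such probe sets. Named genes were every member probe set, the highest and lowest gene of each list, Foxp3, Il2ra, Ctla4, Cd4, Myc, Dlk1, Rian and Mirg, and others chosen after their values were seen. Lists were written from general knowledge, and the members and lists were chosen with earlier results of these data known. Alternatives covered scaling, pseudocount, minimum, fold and the choice of probe sets. Python 3.11.15, pandas 2.3.3 and statsmodels 0.14.6 were used, and the calculation was tested on simulated data.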

Additional observations from a re-analysis of the deposited data

How the results depend on the processing

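No paired analysis was possible because each genotype has 1 array. Over the 36 probe sets and 5 scalings and pseudocounts, 170 of 180 ratios moved by less than the probe-set SD of their signal group, and the sign turned in 7, all within 0.1 of 0. The 10 larger moves came from Meg3 and the dim Neat1 probe set under another pseudocount. The count of member probe sets at least 2-fold lower was 1, and 0 with a pseudocount at the median signal, a minimum at the 75th percentile or a fold of 3, 4 with no filter on low signals and 2 at 1.5-fold. The count at least 2-fold higher was 0, and 2 with no filter and 4 at 1.5-fold. By gene, 1 was lower, and 0 with that pseudocount, that minimum or 3-fold, while 0 were higher and 1 at 1.5-fold. Of 133 list medians, 131 moved little, and 10 turned sign. The median of the imprinted genes beside Meg3 was -0.24 when all probe sets of a gene were averaged, against -0.0019 in the main setting. That of macrophage, monocyte and dendritic cell markers was 0.0889 with no filter, against -0.55 in the main setting. Over all probe sets, those at least 2-fold higher made up 42.7% of those past 2-fold, and 54.7% with loess scaling. The cause of these moves was not tested.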

Other observations

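Long noncoding RNAs as a class were described through the RefSeq biotype of each probe set's gene. Of 1355 such genes named alone on the array, 263 (19.4%) passed the signal minimum, against 62.1% of 16468 protein-coding genes. Of the 263, 158 had a log2 ratio below 0, which is 60.1% against 48.7% of the protein-coding genes past the minimum, and the medians were -0.12 and 0.01. At a mean signal of 250 or more the share below 0 was 52.9% of 87 genes against 48%, and at 1000 or more 53.3% of 30 against 45.9%. Past the minimum, 4 lncRNA genes (1.52%) were past 2-fold on the higher side and 9 (3.42%) on the lower, against 1.07% and 1.11% of protein-coding genes. At 250 or more these were 1 (1.15%) and 0, against 0.652% and 0.74%.

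The gene past 2-fold at 250 or more, 2610316D01Rik, had a signal of 144 in wild-type and 513 in deficient cells, a log2 ratio of 1.73 (SD 0.32). It was read by an _x_at probe set, whose probes can match other transcripts. At that limit Snhg3 had the next highest ratio, and at the other end stood Airn, followed by Gm11110 at -0.89, with 747 and 396. Chaserr, an RNA beside the chromatin remodeller gene Chd2, had -0.66 (0.21), at 2691 and 1691. These genes were chosen after their values were seen.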
